A study of Sus scrofa with 61 samples.

Results

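The antioxidant enzymes described here were 10 genes, namely the superoxide dismutases SOD1 and SOD2, catalase (CAT), the glutathione peroxidases GPX1, GPX3 and GPX4, the peroxiredoxins PRDX3, PRDX5 and PRDX6, and thioredoxin (TXN). They were chosen by name. Every array probe that carried one of these symbols, in the scanner annotation or in the study's additional gene lists, was used. This gave 74 of the 60305 probes on the array and 10 of the 10160 gene symbols with a detected probe. Of the 74 probes, 73 gave a signal clearly above background in at least 1 group, and the exception was SOD2 probe O14696.

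Cells that respire leak superoxide, and the enzymes studied here remove it in steps. The superoxide dismutases convert superoxide to hydrogen peroxide, SOD1 mainly in the cytosol and SOD2 in the mitochondrial matrix. Catalase in peroxisomes then splits the peroxide into water and oxygen. The selenium-dependent glutathione peroxidases and the thiol-based peroxiredoxins reduce it, with electrons that come from glutathione or thioredoxin and in the end from NADPH. In the fetus this system is of interest before birth, because the newborn passes from a low to a high oxygen supply and muscle turns to oxidative metabolism.

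Muscle of the back (Longissimus, called Longissimus lumborum in the labels and longissimus dorsi in the study's methods) was taken from 61 pig fetuses, and the RNA of each was hybridised to 1 single-colour Agilent array. The study compared Large White (LW), a breed selected for growth with higher losses at birth, with Meishan (MS), a breed with low losses at birth, shortly before term. LW and MS denoted purebred fetuses, LWMS fetuses of a Meishan sow and a Large White boar, and MSLW fetuses of a Large White sow and a Meishan boar. At day 90 of gestation there were 8 fetuses of each genotype, and at day 110 there were 9 LW, 7 MS, 8 LWMS and 5 MSLW fetuses. No fetus was treated. Each litter held a pure and a crossed genotype, because semen of a Large White and of a Meishan boar was used together on every sow. LW and MSLW fetuses were thus littermates of Large White sows, and MS and LWMS fetuses of Meishan sows. The sow of each fetus was not in the labels, littermates were therefore counted as separate samples, and the p-values below measure the spread between these fetuses only.

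Between 34346 and 45683 probes per array were well above background (median 41982). The arrays lay on 8 slides, and each slide held fetuses of both ages. The muscle genes ACTA1, CKM and DES were well above background on all 61 arrays. Their group, with MYH3, TNNT3 and MB, had a summed signal with group means of 20.41 to 20.54 on the log2 scale. The 6 genes did not move alike, however, since with age their changes ran from -3.59 to 1.82 in MS, where 3 rose and 1 fell, and at day 110 MS minus LW ran from -2.87 to 1.12. PAX7 of satellite cells, HBB of red cells and ADIPOQ of adipocytes were also above background on all 61 arrays, so the samples held other cells than muscle fibres. In such whole-tissue RNA, fewer cells of a type and less RNA per cell cannot be told apart. No spot of a member gene was saturated.

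All levels below are log2 values of the background-corrected signal after quantile normalization, a scale on which a step of 1 is a doubling of the signal. For each gene the main probe was the one with the highest mean signal, and the others are given as counts and ranges. Probes of 1 gene read the same transcripts and are not independent measurements. A difference was called when its p-value in limma, adjusted by the Benjamini-Hochberg method over all 42436 probes kept, was under 0.01. Signals of different probes are not compared in level, since each probe binds with its own strength.

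**Figure D1:**
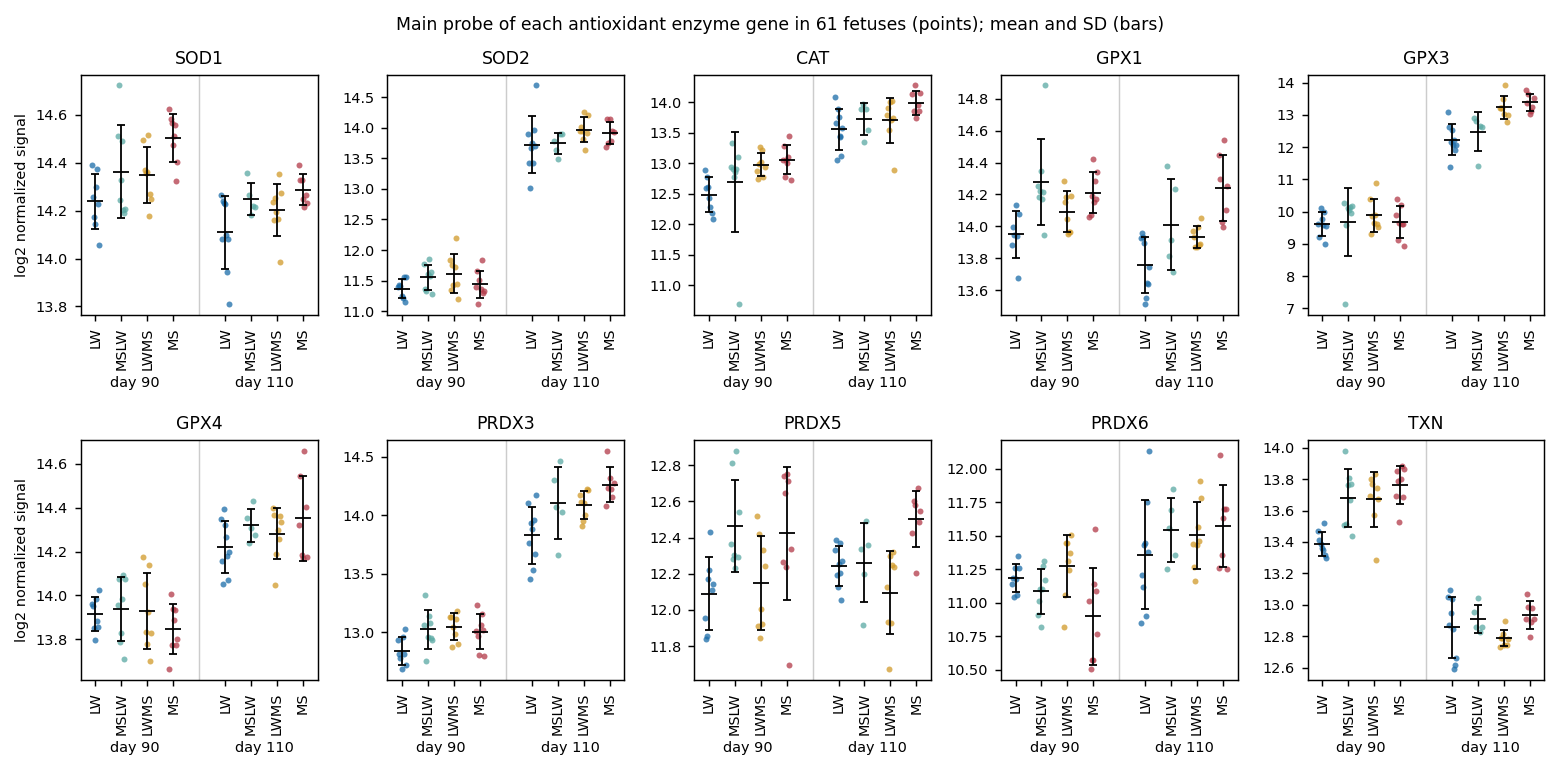
Log2 normalized signal of the main probe of each of the 10 genes (y axis, a separate scale per gene) in the 61 fetuses, by genotype and gestational day (x axis); points are fetuses, bars the mean and SD. The day 90 and day 110 fetuses do not overlap for SOD2, GPX3, PRDX3 and TXN, while SOD1, GPX1, PRDX5 and PRDX6 overlap between the ages.

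Between day 90 and day 110, SOD2, GPX3, CAT, PRDX3 and GPX4 rose and TXN fell in all 4 genotypes. The largest rises were those of GPX3 and SOD2, which were 6.16-fold and 5.12-fold in LW and 13.0-fold and 5.55-fold in MS. By the main probe, 6 of the 10 genes were called in LW, where 45.3% of all probes were called. The same number was called in LWMS (50.9% of all probes) and in MSLW (44.6% of all probes), and 8 genes were called in MS (56.7% of all probes). A large part of the array therefore changed with age. The median change over the 10 genes was 0.24 for LW, 0.29 for LWMS, 0.42 for MSLW and 0.59 for MS, against 0.03, 0.04, 0.02 and 0.03 over all probes. The direction was uneven, since 5 genes rose and 1 fell in LW, where 21.8% of all probes rose and 23.5% fell. In MS 6 genes rose and 2 fell, where 28.6% of all probes rose and 28.1% fell. In each cross 5 genes rose and 1 fell, where 25.1% of all probes rose and 25.7% fell in LWMS, and 20.8% and 23.8% in MSLW. Counted over the 73 probes, 47 rose and 5 fell in LW, and 58 rose and 5 fell in MS.

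**Figure D2:**
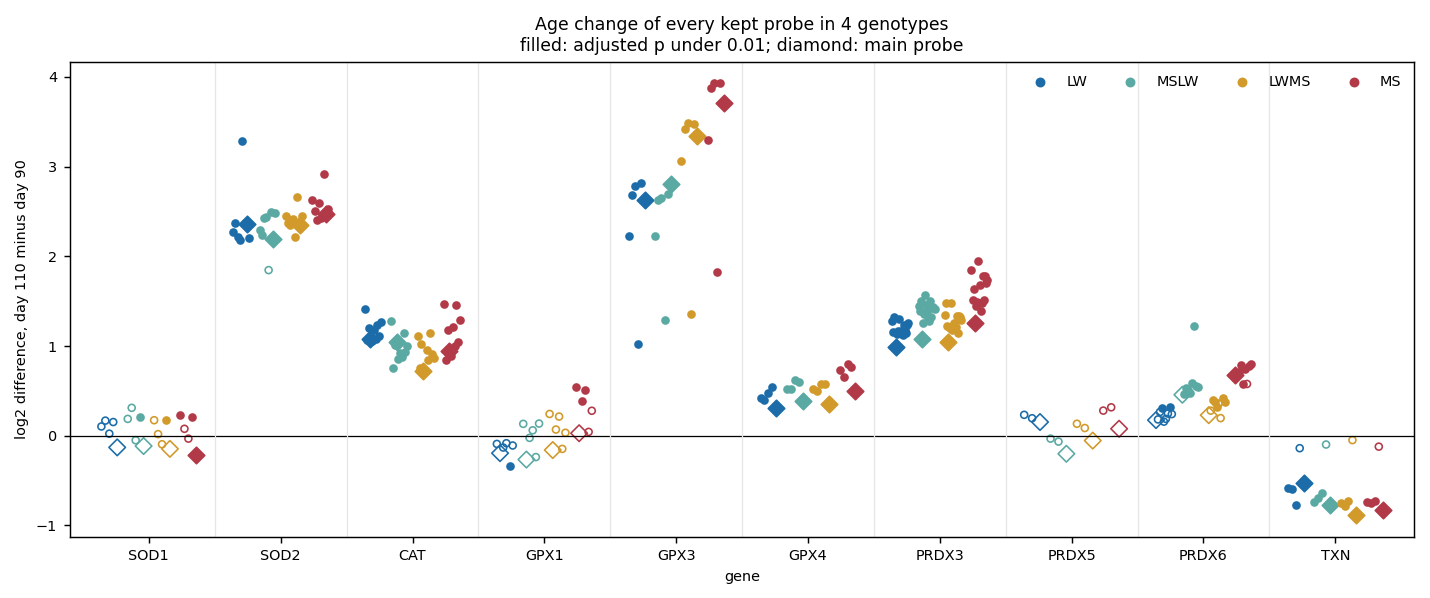
Log2 difference, day 110 minus day 90 (y axis), of every kept probe of each gene (x axis), coloured by genotype; diamonds are main probes, circles the other probes, and filled symbols have an adjusted p under 0.01. The main probes of GPX3 and SOD2 lie at 2.19 or more in each genotype, those of PRDX3 between 0.99 and 1.26, and those of TXN between -0.88 and -0.53.

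SOD2, the manganese superoxide dismutase of mitochondria, had in LW fetuses a lowest, median and highest level of 11.14, 11.40 and 11.56 at day 90 and of 13.02, 13.70 and 14.69 at day 110. In MS fetuses the corresponding values were 11.12, 11.38 and 11.84 at day 90 and 13.68, 13.92 and 14.14 at day 110. The 2 ages were far apart, and the breeds overlapped at each age. LW rose by 2.35 ± 0.13 (SE; adjusted p = 1.01e-22) and MS by 2.47 ± 0.14 (7.52e-23). In the crosses the rise was 2.35 ± 0.13 for LWMS (1.97e-22) and 2.19 ± 0.15 for MSLW (2.03e-18). All 8 kept probes rose in LW, by 2.18 to 3.29, and in MS, by 2.41 to 2.92, and 7 of the 8 in MSLW. The difference between MS and LW was not called at day 90 (0.07, 95% confidence interval -0.20 to 0.34) or at day 110 (0.19, interval -0.08 to 0.46) for the main probe. Of the 8 probes none was called at day 90, and 3 were called higher in MS at day 110 (range -0.23 to 0.70).

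SOD1, the copper-zinc superoxide dismutase, moved little. Its lowest, median and highest levels were 14.06, 14.24 and 14.39 in LW and 14.33, 14.53 and 14.62 in MS at day 90, and 13.81, 14.10 and 14.26 in LW and 14.22, 14.27 and 14.39 in MS at day 110. The LW and MS ranges overlapped narrowly at each age, with most MS fetuses in the upper part. The main probe fell in MS by 0.22 ± 0.07 (adjusted p = 0.00462), but this direction turned to a rise of 0.42 (adjusted p = 2.09e-05) when arrays were scaled by their 75th percentile. In LW the change was -0.13 (interval -0.26 to -0.00), and under that scaling it was 0.21, with 4 of the 5 probes called higher (0.21 to 0.34). The 5 probes of SOD1 did not move alike in MS, where 2 rose and 1 fell (range -0.22 to 0.23). The difference between breeds was steadier. At day 90 MS fetuses exceeded LW fetuses in SOD1 by 0.26 ± 0.07 (adjusted p = 0.00205, 1.20-fold), in all 5 probes (0.26 to 0.41), although the main probe was not called under 75th percentile scaling (0.23). At day 110 the main probe differed by 0.18 (adjusted p = 0.0281) and 3 of the 5 probes were called.

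CAT, which splits hydrogen peroxide into water and oxygen, had levels of 12.09, 12.51 and 12.89 (lowest, median, highest) in LW and of 12.73, 13.05 and 13.45 in MS at day 90. At day 110 they were 13.06, 13.58 and 14.09 in LW and 13.75, 13.95 and 14.28 in MS. Within each breed the ages did not overlap. LW rose by 1.08 ± 0.19 (adjusted p = 2.26e-06) and MS by 0.94 ± 0.20 (5.26e-05). The rise was 0.72 ± 0.19 for LWMS (0.0011) and 1.04 ± 0.22 for MSLW (6.78e-05). All 10 CAT probes rose in all 4 genotypes, by 1.06 to 1.41 in LW and by 0.85 to 1.47 in MS. For the breeds the main probe and the others gave different calls. The main probe was higher in MS by 0.57 ± 0.19 at day 90 (adjusted p = 0.0287) and by 0.44 ± 0.20 at day 110 (0.0703), and neither passed. Of the 10 probes, however, 7 were called higher in MS at day 90 (range 0.40 to 0.75) and 6 at day 110 (range 0.24 to 0.95). One MSLW fetus of day 90 read 10.70 on the main probe, where the next fetus of its group read 12.77, and its other 9 CAT probes did not stand apart. Without that fetus, the day 90 and day 110 differences of the main probe were both called, at 0.57 and 0.44. The fetus was neither LW nor MS, so these sizes could not change, only the spread shared by all groups. A probe of CAT is given so that the transcript measured can be identified, and the same is done for GPX4, PRDX3 and PRDX6.

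CAT A_72_P686566: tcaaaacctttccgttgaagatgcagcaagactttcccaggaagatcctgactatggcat

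GPX1, the cytosolic glutathione peroxidase of most cells, was called by its main probe between the breeds at day 110 but not with age. Its lowest, median and highest levels were 13.68, 13.95 and 14.13 in 7 LW fetuses and 14.06, 14.18 and 14.42 in MS fetuses at day 90 (1 LW spot was non-uniform and set to missing). At day 110 they were 13.52, 13.75 and 13.96 in LW and 14.00, 14.26 and 14.54 in MS. The breeds overlapped slightly at day 90 and not at all at day 110. The difference at day 110 was 0.48 ± 0.09 (adjusted p = 3.27e-05, 1.40-fold), and all 6 probes were called, with 0.48 to 0.98. At day 90 the main probe differed by 0.26 (adjusted p = 0.0462) and 1 of the 6 probes was called. With age the main probe was not called in any genotype, with changes of -0.19 in LW (interval -0.38 to -0.01), -0.16 in LWMS, -0.27 in MSLW and 0.03 in MS (interval -0.16 to 0.22). Some alternative settings gave a call. The change was -0.32 in MSLW with the slide as a block (adjusted p = 0.00456), -0.36 in MSLW without fetus 1 of its day 110 group (adjusted p = 0.00509) and -0.37 in LW with non-uniform spots kept (adjusted p = 0.00805). By 75th percentile scaling the main probe had the opposite sign in LW (0.10), LWMS (0.26) and MSLW (0.17). In MS 3 of the 6 probes rose by quantile normalization, and all 6, the main probe included, rose by 75th percentile scaling (0.55 to 0.72).

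GPX3, the glutathione peroxidase that is secreted into plasma, had the widest range of the 10 genes. At day 90 its lowest, median and highest levels were 8.99, 9.61 and 10.11 in LW and 8.93, 9.63 and 10.40 in MS. At day 110 they were 11.38, 12.17 and 13.09 in LW and 13.04, 13.36 and 13.78 in MS. The breeds coincided at day 90, and at day 110 the ranges met only at the top LW and the bottom MS fetus. The rise was 2.62 ± 0.27 in LW (adjusted p = 1.37e-12) and 3.70 ± 0.29 in MS (3.38e-17), and 3.34 ± 0.28 in LWMS and 2.80 ± 0.31 in MSLW. All 6 GPX3 probes rose in every genotype, by 1.02 to 2.82 in LW and by 1.82 to 3.93 in MS. At day 110 the MS level exceeded the LW level by 1.16 ± 0.28 (adjusted p = 0.000639, 2.23-fold), and 5 of the 6 probes were called (0.52 to 1.83). At day 90 the difference was 0.08 (adjusted p = 0.897, interval -0.48 to 0.63).

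In the crosses GPX3 took levels of 9.32, 9.75 and 10.88 in LWMS and 7.14, 10.08 and 10.27 in MSLW at day 90, and of 12.77, 13.21 and 13.91 in LWMS at day 110. The 5 MSLW fetuses of day 110 read 12.90, 12.81, 11.42, 12.66 and 12.61. The reciprocal crosses overlapped at both ages. The MSLW mean was 0.75 below the LWMS mean at day 110, which was not called (adjusted p = 0.222, interval -1.38 to -0.12).

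A pair of GPX3 probes gave opposite breed differences at day 90, and their sequences are shown for that reason. They overlap over 58 bases and differ at 2 of them. The 30 bases that hold both positions are given here from 5′ to 3′, with the differing bases in capitals.

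GPX3 A_72_P440086: ttcaGttggtctgctctaacctggCcttta

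GPX3 A_72_P036051: ttcaAttggtctgctctaacctggActtta

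Counted from 1 at the 5′ end of this window, the substitutions from the first probe to the second are G5A and C25A. A further GPX3 probe, A_72_P671275, shares 50 bases with the first and holds its base at both positions. At day 90, MS minus LW was 0.63 for A_72_P440086, 0.56 for A_72_P671275 and -0.63 for A_72_P036051, none of them called. At day 110 the values were 1.83, 1.67 and 0.52. The pair was chosen after its values were seen, so it is described without a test.

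The signal difference of this pair (A_72_P440086 minus A_72_P036051) followed the genotype and not the age. It has no meaning as a ratio of transcripts, but it can be compared across fetuses. In LW it was -0.49 ± 0.19 (SD, n = 8) at day 90 and -0.59 ± 0.07 (n = 9) at day 110. In MS it was 0.77 ± 0.18 (n = 8) and 0.72 ± 0.06 (n = 7). No LW fetus overlapped an MS fetus, as the highest LW value was -0.18 and the lowest MS value 0.57. Both crosses lay between the breeds, with means of 0.10 in LWMS and 0.10 in MSLW at day 90 and of 0.04 and 0.08 at day 110, whichever breed the sow was. One LWMS fetus of day 90, at -0.40, fell within the LW range of its age. At day 110 the lowest LWMS fetus read -0.19 and the highest LW fetus -0.48, so that no cross fetus of that age overlapped either breed. The cause of this breed difference between probes was not tested.

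**Figure D3:**
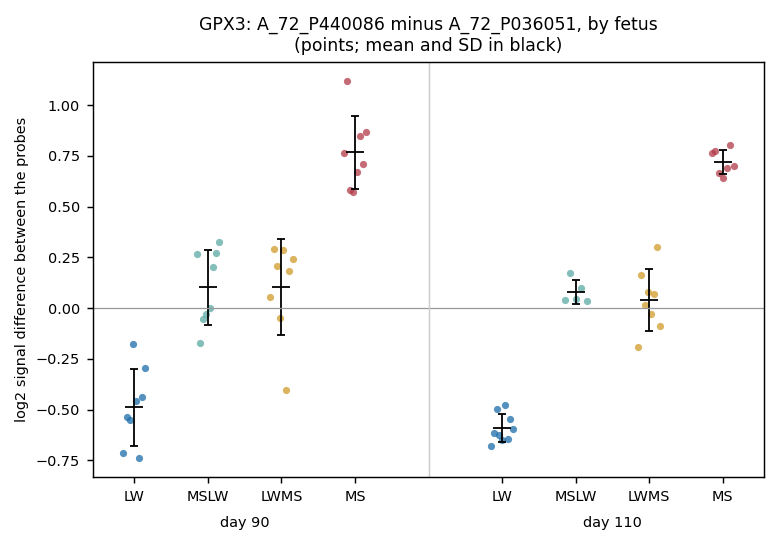
Signal difference between GPX3 probes A_72_P440086 and A_72_P036051 in each fetus (y axis, log2 units) by genotype and gestational day (x axis), with the mean and SD in black. LW fetuses lie below 0, MS fetuses above 0.5, and the means of LWMS and MSLW fetuses between 0.04 and 0.10.

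GPX4, the glutathione peroxidase that acts on lipid peroxides in membranes, rose by a small amount in all genotypes. Its lowest, median and highest levels were 13.80, 13.92 and 14.03 in LW and 13.66, 13.85 and 14.01 in MS at day 90, and 14.05, 14.20 and 14.39 in LW and 14.17, 14.32 and 14.66 in MS at day 110. The ages did not overlap within either breed, while the breeds overlapped at both ages. LW rose by 0.31 ± 0.07 (adjusted p = 0.00012), LWMS by 0.35 (1.85e-05), MSLW by 0.38 (5.04e-05) and MS by 0.50 ± 0.07 (2.13e-08). All 5 probes rose in each genotype, by 0.31 to 0.55 in LW and 0.50 to 0.80 in MS. The size depended on the scaling, as the main probe rose by 0.62 in LW and 1.08 in MS when arrays were scaled by their 75th percentile. No probe was called between the breeds by quantile normalization. By 75th percentile scaling 4 of the 5 were called higher in MS at day 110, and the whole range was 0.25 to 0.39.

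GPX4 A_72_P646221: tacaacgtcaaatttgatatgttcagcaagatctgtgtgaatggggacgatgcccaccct

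PRDX3 is the peroxiredoxin of the mitochondrial matrix and so shares its compartment with SOD2. Its lowest, median and highest levels were 12.68, 12.81 and 13.03 in LW and 12.79, 13.01 and 13.24 in MS at day 90. At day 110 they were 13.45, 13.88 and 14.17 in LW and 14.08, 14.23 and 14.55 in MS. The ages were fully apart, and the breeds overlapped only narrowly at day 110. LW rose by 0.99 ± 0.09 (adjusted p = 8.54e-15, 1.99-fold) and MS by 1.26 ± 0.09 (6.44e-18, 2.39-fold), with LWMS at 1.04 ± 0.09 and MSLW at 1.08 ± 0.10. All 16 PRDX3 probes rose in each genotype. MS exceeded LW at day 110 by 0.43 ± 0.09 (adjusted p = 0.000102, 1.35-fold), and 13 of the 16 probes were called (0.05 to 1.13). At day 90 the main probe differed by 0.16 (adjusted p = 0.212), and the 1 probe called was A_72_P568344, with 0.77, against a lowest value of -0.27 among the 16. The breed difference of PRDX3 thus ran over a wider range of values across its probes than the age change, which was 0.99 to 1.32 in LW and 1.26 to 1.95 in MS.

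PRDX3 A_72_P558709: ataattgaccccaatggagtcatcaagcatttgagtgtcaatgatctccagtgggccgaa

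PRDX5, found in mitochondria, peroxisomes and cytosol, was not called with age in any genotype by quantile normalization. Its levels in LW were 11.84, 12.13 and 12.43 at day 90 and 12.06, 12.25 and 12.38 at day 110. In MS they were 11.69, 12.49 and 12.75 at day 90 and 12.20, 12.55 and 12.67 at day 110. All 4 ranges overlapped. The age change was 0.15 in LW (interval -0.08 to 0.38) and 0.08 in MS (interval -0.17 to 0.32). By 75th percentile scaling the MS change was called (0.37, adjusted p = 0.00946), as were all 3 probes (0.37 to 0.48). MS lay above LW by 0.33 at day 90 (adjusted p = 0.0363) and by 0.26 at day 110 (0.0772), neither of which passed for the main probe, while 2 of its 3 probes were called at day 110 (range 0.26 to 0.46).

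PRDX6 uses a single active cysteine and also has phospholipase activity. Its levels in LW were 11.04, 11.18 and 11.35 at day 90 and 10.85, 11.38 and 12.14 at day 110. In MS they were 10.50, 10.89 and 11.55 at day 90 and 11.26, 11.63 and 12.10 at day 110. The MS fetuses of day 90 were the most spread of the younger groups. PRDX6 rose in MS by 0.67 ± 0.14 (adjusted p = 4.72e-05, 1.59-fold). The change was 0.17 in LW (adjusted p = 0.28, interval -0.10 to 0.44), 0.23 in LWMS (0.15) and 0.46 in MSLW (0.012), none of which passed. The MSLW change was called in 5 of 19 settings, among them the slide as a block (0.48, adjusted p = 0.00479). Over its 9 probes, 2 rose in LW, 5 in LWMS, 8 in MSLW and 8 in MS. The difference in age change between the breeds was 0.50 for the main probe and was not called (adjusted p = 0.0784).

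The PRDX6 probes fell into 2 groups by breed difference, a split seen in these values and described without a test. The probes O4029, A_72_P165176 and A_72_P641705 share a run of 29 bases that none of the other 6 kept probes holds, shown here in full.

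PRDX6 shared run: aattttgctttttaggaatcagcaaataa

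At day 90 these 3 probes lay 0.28 to 0.40 lower in MS than in LW, and the other 6 between -0.03 and 0.21, with none called. The mean of the 3 minus the mean of the other 6 was 1.45 ± 0.09 (SD) in LW and 1.01 ± 0.25 in MS at day 90, and 1.37 ± 0.16 and 1.01 ± 0.21 at day 110. The breed means differed by about the same amount at both ages, with LWMS at 1.36 and 1.30 and MSLW at 1.31 and 1.18. The fetuses of the breeds overlapped, with LW at 1.33 to 1.62 and MS at 0.68 to 1.36 at day 90. At day 110 LW spanned 1.07 to 1.63 and MS 0.70 to 1.25. At day 110, 5 of the 9 probes were called higher in MS (range 0.16 to 0.72), and the main probe, one of the 3, was not (0.21, adjusted p = 0.225). Probe A_72_P633743, one of the other 6, is shown for comparison.

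PRDX6 A_72_P633743: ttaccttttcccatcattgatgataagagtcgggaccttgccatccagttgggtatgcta

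TXN, the small protein that returns some oxidised peroxiredoxins to their active form, was the one gene of the 10 called lower with age in every genotype. Its levels in LW were 13.30, 13.37 and 13.52 at day 90 and 12.59, 12.87 and 13.09 at day 110. In MS they were 13.53, 13.79 and 13.88 at day 90 and 12.79, 12.91 and 13.07 at day 110. No day 110 fetus of any genotype reached the lowest day 90 fetus, and at day 90 every MS fetus lay above every LW fetus. LW fell by 0.53 ± 0.07 (adjusted p = 2.02e-09), MS fell by 0.83 ± 0.07 (7.94e-15), LWMS fell by 0.88 (2.39e-16) and MSLW fell by 0.77 (4.83e-12). It kept its direction under each of the 4 other scalings tried, but the fall was smaller by 75th percentile scaling, at -0.28 in LW and -0.42 in MS. MS exceeded LW at day 90 by 0.37 ± 0.07 (adjusted p = 6.57e-05, 1.29-fold), in all 5 probes (0.37 to 0.48), and at day 110 by 0.08 (adjusted p = 0.419, interval -0.07 to 0.22), where 3 of the 5 probes were called.

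Of the 5 TXN probes 4 were called lower with age in each genotype. The exception, O7867, is the reverse complement of the main probe over 59 bases, given in capitals in both sequences.

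TXN A_72_P177678: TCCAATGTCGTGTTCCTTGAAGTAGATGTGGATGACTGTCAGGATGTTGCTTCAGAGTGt

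TXN O7867: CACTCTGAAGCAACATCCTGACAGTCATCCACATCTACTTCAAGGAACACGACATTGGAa

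The age change of O7867 was -0.14 in LW (interval -0.37 to 0.09) and -0.12 in MS (interval -0.37 to 0.12). Its breed differences were called, at 0.43 on day 90 and 0.44 on day 110, so it is among the TXN probes counted as called above. The 2 probes read opposite strands of the same stretch, and the strand that O7867 detected was not tested. Probe pairs with identical sequence show how closely a repeat reading agreed. For such pairs of SOD2, GPX4, PRDX5 and TXN the SD of the difference over the 61 arrays was 0.06, 0.06, 0.09 and 0.06, and their estimated changes differed by at most 0.08.

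In purebred fetuses 2 of the 10 genes were called between the breeds at day 90 (12.8% of all probes), namely SOD1 and TXN. At day 110, 3 were called (29.0% of all probes), namely GPX1, GPX3 and PRDX3. All 5 were higher in MS, the direction called for 6.23% of all probes at day 90 and for 13.7% at day 110. The median difference over the 10 genes was 0.21 at day 90 and 0.24 at day 110, against -0.00 and 0.01 over all probes. Over the 73 probes, 19 were called at day 90 and 46 at day 110, and each was higher in MS. The number at day 110 rested on the probe chosen and the scaling. It was 8 of 10 when all kept probes of a gene were averaged, with SOD1 (0.31), CAT (0.55), PRDX5 (0.38), PRDX6 (0.45) and TXN (0.30) added. The TXN average included O7867, which reads the opposite strand to the main probe. Of the 3 probes in the PRDX5 average, 2 have the same sequence. The number was 6 under 75th percentile scaling, with SOD1 (0.44), CAT (0.67) and GPX4 (0.39) added. At day 90 the same settings gave 4 and 1 genes. No member was called lower in MS at either age under any setting tried.

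**Figure D4:**
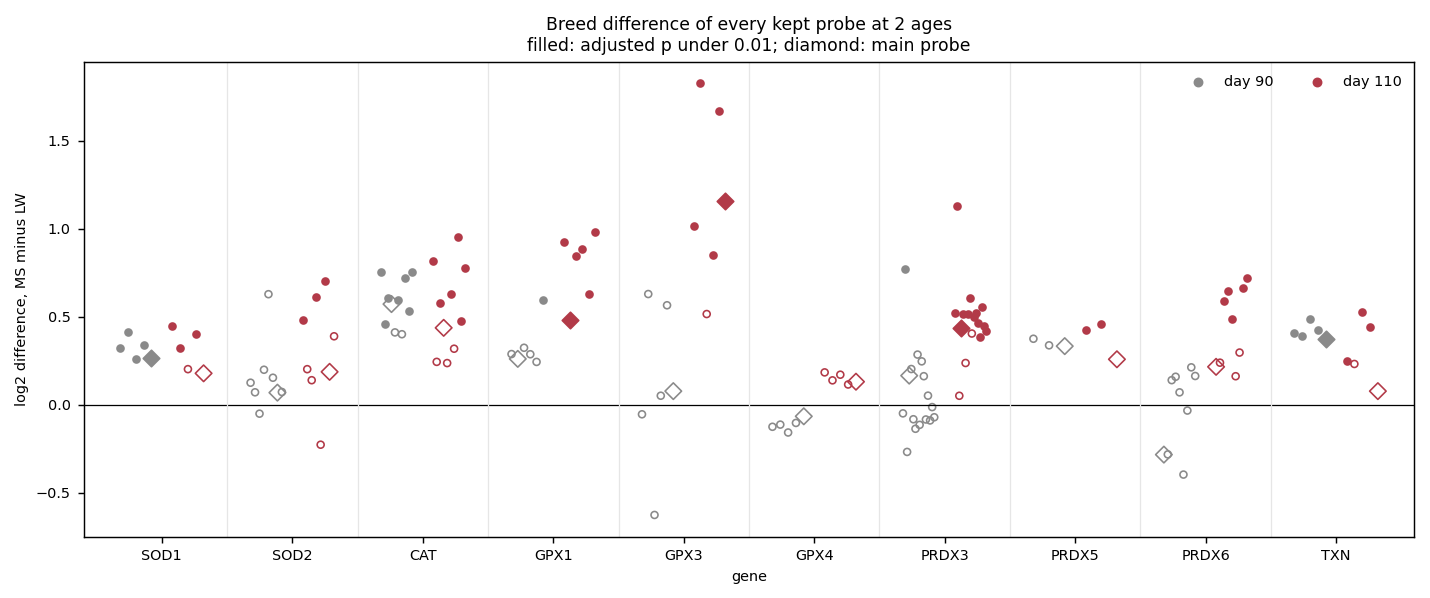
Log2 difference MS minus LW of every kept probe of each gene at day 90 and day 110 (log2 units), with main probes and called probes marked. At day 110 all probes of every gene but SOD2 lie above 0. Those of GPX1 lie at 0.48 to 0.98, those of GPX3 at 0.52 to 1.83, and those of PRDX3 reach 1.13. At day 90 the GPX3 probes spread from -0.63 to 0.63.

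Whether the breeds changed differently with age was tested directly. None of the 10 main probes passed in limma (5.95% of all probes did), and 4 had an unadjusted p under 0.05. The largest value was that of GPX3, which rose 1.08 more in MS than in LW (adjusted p = 0.0542, interval 0.30 to 1.87). TXN fell by 0.29 more in MS (adjusted p = 0.041). An MSLW fetus of day 90 had a GPX3 level of 7.14, far under the next of its group (9.60). Leaving it out brought the GPX3 value of 1.08 past the threshold. Being neither LW nor MS, that fetus could alter only the spread shared by all groups and not the value. Over the 73 member probes, 7 were called, all with a larger rise in MS (2.56% of all probes were called in that direction). Of the 7, 4 were GPX3 probes (1.07 to 1.20). Among these, A_72_P440086, A_72_P036051 and A_72_P671275 overlap in sequence, so they are not separate readings. All 6 GPX3 probes had a positive value (0.80 to 1.20).

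No member was called between the crosses, or between the crosses and the mean of the breeds. MSLW against LWMS gave none at day 90 (0.500% of all probes) or at day 110 (0.912%) in limma. One gene had an unadjusted p under 0.05 at each age, PRDX5 at day 90 (0.31 higher in MSLW, adjusted p = 0.298) and GPX3 at day 110. Crosses against the mid-parent value gave none at day 90 (0.0495% of all probes) or at day 110 (0.0778%), with 0 and 1 genes at an unadjusted p under 0.05. The latter was PRDX5, 0.19 below the mid-parent level at day 110 (adjusted p = 0.667, interval -0.37 to -0.01).

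Ranking the 8 groups by mean level showed the same structure. For SOD2, GPX3, PRDX3 and TXN the only neighbours in the order whose fetuses did not overlap were the lowest group of the higher age and the highest group of the lower age. For the other 6 genes every pair of neighbours overlapped. Of these, CAT, GPX4 and PRDX6 still had the mean of every day 110 group above that of every day 90 group. In SOD1, GPX1 and PRDX5 the ages were mixed in the order. All 10 genes differed over the 8 groups by the F test in limma, as did 72.2% of all probes, and the weakest was PRDX5 (adjusted p = 0.00278).

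The slides mostly gave the same directions. For age, the means of a slide covered whichever genotypes it held. Within each of the 8 slides the mean of day 110 fetuses exceeded that of day 90 fetuses for SOD2 (1.90 to 2.93), CAT, GPX3 (2.54 to 4.27), GPX4, PRDX3 and PRDX6, and was lower for TXN (-0.91 to -0.62) and SOD1, the latter by quantile normalization. GPX1 was higher at day 110 in 2 of the 8 slides and PRDX5 in 4. The GPX3 value of 4.27 came from slide 2, which had no LW or MSLW fetus of day 110. That slide also held the day 90 MSLW fetus that read 7.14. In the 6 slides that held both breeds at day 110, MS exceeded LW in all 6 for GPX1, GPX3 (0.69 to 1.66), CAT and PRDX5. It did so in 5 for SOD1, SOD2, GPX4, PRDX3 and PRDX6 and in 3 for TXN. In the 8 slides that held both breeds at day 90, MS exceeded LW in all 8 for SOD1 and TXN.

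After group and slide means were removed, the residual levels of some members moved together across the 61 fetuses. The highest correlations were between SOD1 and TXN (r = 0.56), SOD2 and PRDX3 (0.53) and GPX1 and GPX4 (0.47). Without the 4 fetuses in which a main probe stood far from its group, left out after the values were seen, these values were 0.59, 0.59 and 0.43. The lowest correlations, between SOD1 and GPX3 (-0.36) and between CAT and GPX1 (-0.35), rested on those fetuses and were -0.10 and -0.11 without them. Among 9651 other genes, those most like SOD2 were MDH1 (0.70), DCI (0.67) and LAP3 (0.67), and those most like PRDX3 were NMNAT3 (0.75), PHKA1 (0.72) and BCKDHB (0.72). Among those most like TXN were CCDC109B (0.71) and CDC42SE1 (0.70). SOD1 was most like UBQLN1 (0.75), GPX4 like FAM177A1 (0.69), PRDX6 like CDNF (0.66), GPX1 like CCDC124 (0.65) and PRDX5 like CAPN1 (0.58). The genes most like CAT and GPX3 rested on the same 4 fetuses. For CAT, LENG1 had a value of 0.83 with them and 0.50 without, and for GPX3, UBE4B had 0.76 and 0.44. These are descriptions, since points of 1 array share their RNA preparation and littermates share a sow.

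The genes that work beside the 10 were given by lists. Their counts are to be read against the 45.3% of all probes called with age in LW and the 56.7% in MS. With age 21.8% of all probes rose and 23.5% fell in LW, and 28.6% and 28.1% in MS. Between the breeds 12.8% were called at day 90 and 29.0% at day 110, where 13.7% were higher in MS. Of 16 measured relatives of the same families, 4 rose and 4 fell with age in LW (median 0.07) and 6 rose and 4 fell in MS (median 0.18). The mitochondrial thioredoxin reductase TXNRD2 rose by 1.01 in LW and 1.36 in MS, the thioredoxin inhibitor TXNIP by 0.96 and 1.27, and the mitochondrial glutaredoxin GLRX5 by 0.94 and 1.08. GPX7, an endoplasmic reticulum enzyme, fell by 0.69 and 0.89, and PRDX4 of the same compartment by 0.67 and 0.60. At day 110, 7 relatives were higher in MS, among them GLRX (1.20) and GPX2 (0.87), and 3 were lower, namely TXNRD3 (-0.93), GPX7 (-0.70) and CCS, the chaperone that loads copper into SOD1 (-0.62). CCS was also lower in MS at day 90 (-0.66), where SOD1 itself was higher.

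Of 16 genes of glutathione synthesis, recycling and transfer, 5 rose and 3 fell in LW and 6 rose and 6 fell in MS (medians 0.00 and 0.02). The largest differences of all lists were in this group. GSTM1 fell by 3.40 in MS, while its change in LW was 0.22 (adjusted p = 0.59), and this difference in age change was called (-3.62). At day 110 MS minus LW was -3.94. MGST2 rose in MS by 3.25 and its difference in age change was also called (2.45). GSTM1 belongs to a family of near-identical copies, and the probes may read more than 1 of them. Of 9 genes that supply NADPH, 5 rose and 2 fell in LW and 4 rose and 3 fell in MS. The mitochondrial enzymes IDH2 (1.79 in LW, 1.86 in MS), NNT (1.26 and 2.19) and ME3 (1.02 and 1.85) led the rises, while TKT of the pentose phosphate pathway fell (by 0.64 and 0.82). NNT was 1.34 higher in MS at day 110, and its difference in age change was called (0.93).

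Of 11 genes of the NRF2 pathway, which switches on many antioxidant genes, 7 rose and 1 fell in LW (median 0.51) and 8 rose and 2 fell in MS (median 0.55). HMOX1, which breaks down haem, fell by 1.59 in LW and 2.25 in MS, and MAFK rose by 1.77 and 1.54. NQO1 rose in MS by 0.92 and exceeded its LW level by 1.07 at day 110. None of the 11 was called between the breeds at day 90, where 12.8% of all probes were called. Of 14 other selenoproteins and methionine sulfoxide reductases, 3 rose and 5 fell in LW and 5 of each in MS, with MSRB3 up by 1.10 and 1.52 and SELENON down by 0.97 and 1.38. Of 7 sources of superoxide or peroxide, 1 rose and 3 fell in LW and 3 of each in MS. The NADPH oxidase subunit NCF1 fell (-1.58 in LW, -2.27 in MS), and the mitochondrial monoamine oxidase MAOB rose in MS by 1.56. Of the list genes called in MS, the signs of MGST1, TALDO1 and SELENOW turned under 75th percentile scaling.

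**Figure D5:**
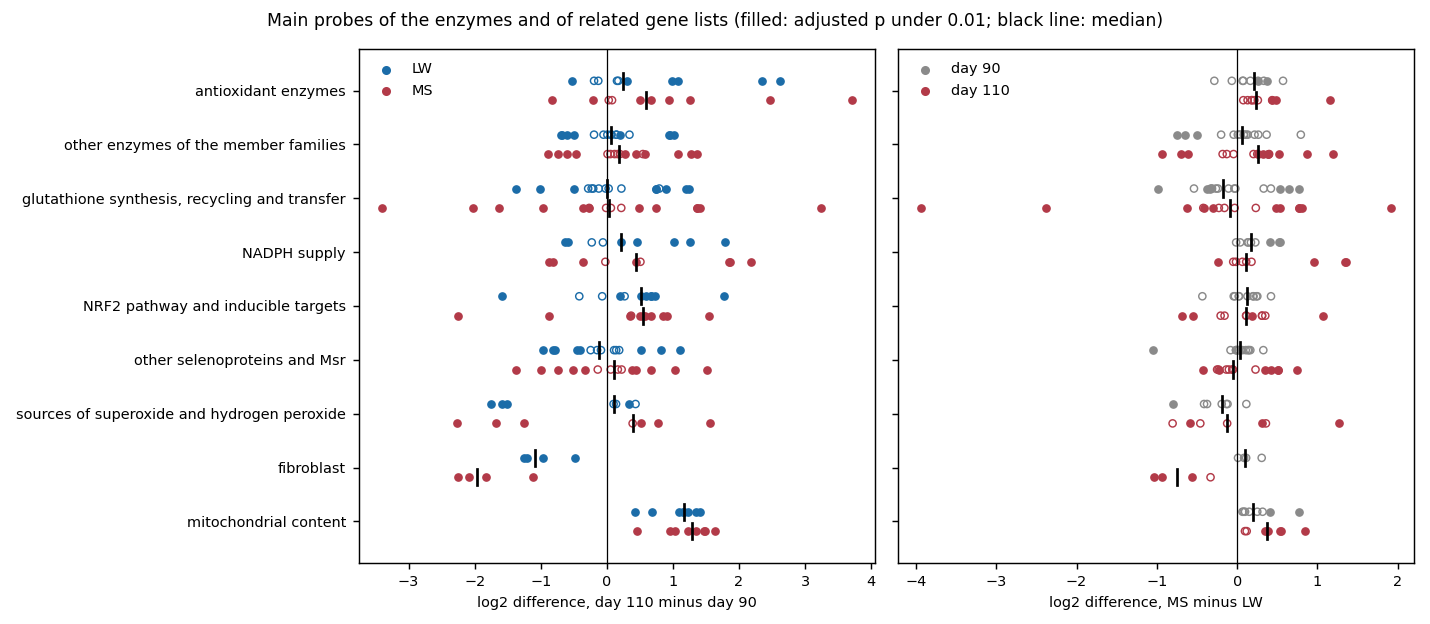
Log2 difference (x axes) of the main probe of each gene (points) in the 10 enzymes, 6 related lists and the mitochondrial and fibroblast markers (y axis). The left panel shows day 110 minus day 90 in LW and MS, and the right panel MS minus LW at both ages; filled points have an adjusted p under 0.01 and black lines are medians. The NRF2 list has medians of 0.51 and 0.55 with age, and the glutathione list holds the widest spread, from -3.40 to 3.25 in MS.

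Other constituents of the tissue moved with the same contrasts. All 8 genes used for mitochondrial content were called higher with age in every genotype (median 1.16 in LW and 1.29 in MS). Of all probes, 20.8% to 28.6% were called higher, depending on the genotype. At day 110, 6 of the 8 were called higher in MS, as were 13.7% of all probes. At day 90 the LW fetuses spanned a summed level of 17.47 to 17.86 and the MS fetuses 17.84 to 18.15, and at day 110 they spanned 18.57 to 19.01 and 19.16 to 19.27. SOD2 and PRDX3 rose beside them. All 4 fibroblast genes were called lower with age in each genotype (median -1.08 in LW and -1.96 in MS), as were 23.5% to 28.1% of all probes. At day 110, 3 of the 4 were called lower in MS, as were 6457 of the 42436 probes. At day 90 the summed level of LW fetuses was between 18.16 and 18.51 and that of MS fetuses between 18.36 and 18.47, and at day 110 between 16.79 and 17.50 and between 16.17 and 16.55. TXN fell beside them. The adipocyte sum at day 110 was 12.42 to 13.38 for MS fetuses and 13.60 to 14.49 for LW fetuses, and its means at day 90 were 13.45 and 14.19. From day 90 to day 110 the mean endothelial sum went from 14.53 to 14.08 for LW and from 14.61 to 13.90 for MS. The erythroid sum spanned 12.62 to 12.86 for LW and 12.65 to 12.89 for MS fetuses at day 90, and 11.80 to 12.43 and 11.86 to 12.13 at day 110. The mean satellite cell sum went from 7.92 to 8.39 for LW and from 8.25 to 9.87 for MS, and the mean macrophage sum from 11.10 to 10.74 and from 11.20 to 11.11. The genes of the adipocyte, endothelial and erythroid sums did not move alike with age. In LW they ran from -1.03 to 1.47, -1.05 to 1.60 and -1.04 to 0.99 in turn. In MS they ran from -1.60 to 1.11, -1.33 to 1.14 and -1.37 to 1.83. The 2 satellite cell genes measured changed by -0.41 and 0.56 in LW, and the macrophage genes by -0.64 to 0.40. Each sum follows its brightest genes. The part of these constituents in the members' changes was not tested.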

How the data were processed

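Total RNA of 61 fetal muscles was labelled with Cy3 and hybridised to 1-colour arrays. The authors deposited 1 scanner file per array, with intensity values extracted by Agilent Feature Extraction 10.10.1.1, not normalized between arrays. They also deposited a table of log2 values for 44368 spots, quantile normalized by the authors; each row was matched to the scanner files by its row number, and 2351 values were missing. That table was used as an alternative.

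Here, control spots were left out, non-uniform spots were set to missing, and spots of a probe were averaged. The background-corrected intensity was quantile normalized and log2 transformed in limma 3.58.1 (R 4.3.3). A probe was kept when well above background on 80% of the arrays of at least 1 group (42436 probes). Groups of 8 combinations of genotype and day were fitted together, with moderated two-sided tests and Benjamini-Hochberg adjustment over all kept probes, threshold 0.01. The study's model had the sow as a random effect; sows were not in the labels. The number of arrays limits the precision. Figures were drawn with matplotlib 3.10.9.

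The 10 members and the gene lists were chosen with earlier results of these data known. Named genes were the members, up to 4 called genes per list and comparison with the largest absolute change, and up to 3 genes most like each member in residuals. PRDX4, MGST1 and, at day 110, CCS were named after their values were seen. Probe coordinates were not used, since the sources give no genome build for them. A few related genes and 1 probe sequence are not reported here.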

Additional observations from a re-analysis of the deposited data

Results flagged for a closer look

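In 5 of 80 gene and genotype-by-day groups tested, 1 fetus lay far from the others of its group on the main probe. Chance gives about 1 such group in 20. CAT read 10.70 in fetus 8 of the MSLW group at day 90 (next fetus 12.77) and 12.90 in fetus 8 of the LWMS group at day 110 (next 13.55). GPX1 read 14.88 in fetus 8 of the MSLW group at day 90 (next 14.35). GPX3 read 7.14 in fetus 2 of the MSLW group at day 90 (next 9.60) and 11.42 in fetus 3 of the MSLW group at day 110 (next 12.61). For the CAT and GPX3 readings at day 90, the other probes of the gene in the same fetus did not stand apart.

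By the test of the difference itself, 7 of the 73 probes changed with age to another extent in MS than in LW. They were GPX1 probe A_72_P564112 (0.64), GPX3 probes A_72_P637182 (1.07), A_72_P440086 (1.20), A_72_P036051 (1.14) and A_72_P671275 (1.10), GPX4 probe A_72_P646221 (0.33) and PRDX6 probe A_72_P633743 (0.56). In each, the value is how much more the signal rose in MS.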

How the results depend on the processing

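Up to 19 alternatives were run per comparison, of which those that left out fetus 2 or 8 of MSLW at day 90 or fetus 8 of LWMS at day 110 were chosen after seeing the data. The number of the 10 genes called with age ran from 6 to 7 in LW, 7 to 10 in MS, 6 to 7 in LWMS and 6 to 8 in MSLW, and stayed at 0 for the crosses and at 10 for the F test. Under 75th percentile scaling, the breed comparison gave 1 gene at day 90 and 6 at day 110, and the difference in age change gave 1. With the mean over all kept probes of a gene these were 4, 8 and 1. Crossbred fetuses were left out 1 at a time, namely those above and each MSLW fetus of day 110. This gave 2 to 3, 3 to 4 and 0 to 1 genes, where the 1 was GPX3, without fetus 2 of MSLW at day 90. No LW or MS fetus was left out, so the breed differences kept their sizes and only the spread shared by all groups could change. SOD1 turned direction with age under 75th percentile scaling, to 0.21 in LW (not called), 0.32 in LWMS, 0.35 in MSLW and 0.42 in MS, and to 0.053 in MS by the mean over all kept probes. That scaling moved the median of all probes in MS from 0.03 to 0.13, that of the brightest 2122 probes from -0.15 to 0.52, and the share of calls for the difference in age change that were higher in MS from 43.0% to 63.7%. The cause was not tested. Of single-gene values under the alternatives, 1255 stayed on their side of the threshold, of which 15 changed sign without a call in either setting, 27 came past it, 4 no longer passed and 4 turned with a call. All 19 changes of sign came with 75th percentile scaling (12) or the mean over all kept probes (7). No paired analysis was possible because the labels number fetuses without linking them across groups. With the slide as a fixed block, GPX1 (-0.32) and PRDX6 (0.48) came past the threshold with age in MSLW. Signal over background set no limit for the members.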
